A study of Mus musculus with 8 samples.

Results

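Of the 21895 genes in the deposited table, 8 were taken by gene symbol because they build the tight and tricellular junctions on which hearing depends. They are the claudins Cldn9, Cldn11 and Cldn14, the MARVEL-domain genes Ocln (occludin) and Marveld2 (tricellulin), the angulins Ildr1 and Lsr, and Tjp1, which encodes the scaffold ZO-1. Mutations in the human genes CLDN14, MARVELD2 and ILDR1 are known causes of inherited deafness, and mice without Cldn9, Cldn11 or Ocln are deaf. All 8 were present in the table and all 8 passed the filter on low values, a mean of at least 0.5 FPKM (fragments mapped to a gene, divided by transcript length in kilobases and by the mapped fragments of the library).

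Tight junctions seal the space between neighbouring epithelial cells, and tricellular junctions seal the corners where the edges of adjoining cells meet. In the cochlea these seals keep endolymph, the potassium-rich fluid of the scala media, apart from the fluid around the cell bodies, and in the stria vascularis they isolate the space in which the endocochlear potential is generated. Claudins form the paired strands of the tight junction, occludin joins those strands, tricellulin and the angulins build the tricellular seal, and zonula occludens proteins tie the strands to actin.

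The study deleted the microRNA miR-29a in mice and asked which cochlear mRNAs change with its loss. Wild-type mice (WT, genotype WT) and knockout mice (KO, genotype miR-29a-/-) were on a C57BL/6 background, the deletion was constitutive and not limited to the ear, and 4 cochlear libraries were made for each genotype, numbered 1 to 4. The sample records give an age of 21 days for both groups, whereas the study's methods give an older age in months, and the age entered no comparison. The labels do not say whether libraries came from separate animals, so the p-values here measure only the spread between these samples, which may be technical. The deleted microRNA was not analysed here because the table holds genes and not mature microRNAs, which leaves the genotypes as labelled.

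The libraries summed to between 249221 and 288695 FPKM, and their relative depth lay between 0.949 and 1.17 of the median library. WT1 stood apart. It had the lowest value of the 8 libraries for 52.1% of the 14990 tested genes, and 7.09% of its summed FPKM fell on Gm8797. Its median-ratio scaling factor was 0.776, against 0.939 in KO1 and at least 1.03 in the other 6 libraries. The value without WT1 is given where leaving it out turned the direction of a member or changed a call. Defining markers of hair cells, supporting cells and stria vascularis were detected, with none listed at 0 in every library.

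The microRNA acts by pairing its seed, bases 2 to 8 from the 5′ end, with matching letters in the 3′-UTR (the untranslated end) of an mRNA. The mature sequences of the family are shown because its members share the seed. Whether the other members stayed in place after the deletion was not measured. The sequences were taken from RefSeq on GRCm38.p6, and capitals mark the seed.
mmu-miR-29a-3p: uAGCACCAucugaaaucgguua
mmu-miR-29b-3p: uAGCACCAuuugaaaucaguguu
mmu-miR-29c-3p: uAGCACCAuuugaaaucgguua

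The miR-29a-3p sequence lies on the minus strand of chromosome 6 at bases 31062673 to 31062694. The same seed stands in miR-29b-3p, encoded by Mir29b-1 nearby on chromosome 6 (bases 31063025 to 31063047, minus strand) and by Mir29b-2 on chromosome 1. It also stands in miR-29c-3p, encoded by Mir29c on chromosome 1. The letters TGGTGCT, the reverse complement of the seed, were searched in the sense strand of the longest annotated 3′-UTR of each gene (GENCODE mouse release 21, GRCm38), together with GGTGCTA, the reverse complement of bases 2 to 7 followed by an A, which overlaps TGGTGCT by 6 letters. Ocln and Ildr1 each held 1 match, and the 3′-UTRs of the other 6 genes, between 96 bases in Lsr and 1408 bases in Tjp1, held neither sequence. Both matches are shown with their flanks, the TGGTGCT in capitals.
Ocln: cttttccaacgTGGTGCTaccactgcagg
Ildr1: ccagtaggtcaTGGTGCTcgggaccaagg

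The capitals of Ocln lie at bases 1906 to 1912 of its 2307-base 3′-UTR (chromosome 13, bases 100496902 to 100496908, minus strand) and are followed by an A. Those of Ildr1 lie at bases 283 to 289 of 1246 (chromosome 16, bases 36725841 to 36725847, plus strand) and are followed by a C. Of the 14832 tested genes with an annotated 3′-UTR, 15.5% held TGGTGCT, 3.38% held TGGTGCTA and 18.9% held either of the searched sequences, at a median 3′-UTR length of 1181 bases. A match of letters is a description and not a measured binding site.

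The 8 genes spanned a wide range of expression in the cochlea, from Cldn11 at 57.0 ± 24.9 FPKM (SD over all 8 libraries) to Marveld2 at 1.71 ± 0.642. FPKM are per transcript length, so levels can be set against each other between genes, but only roughly. The annotation behind the lengths is not given in the sources used here, and some members overlap other annotated genes. After Cldn11 came Tjp1 at 42.2 ± 3.80, Cldn9 at 14.3 ± 5.33, Lsr at 7.34 ± 1.18, Ocln at 6.91 ± 1.47, Ildr1 at 4.56 ± 0.758 and Cldn14 at 2.92 ± 0.674. Among the tested genes, the mean level of Cldn11 stood at percentile 96.2, that of Tjp1 at 94.0 and that of Cldn9 at 70.1. Lsr stood at 46.8, Ocln at 44.8, Ildr1 at 31.5, Cldn14 at 20.9 and Marveld2 at 11.9. Cldn11 and the scaffold gene were thus among the abundant mRNAs of the tissue. The tricellular genes Ildr1 and Marveld2 and the claudin Cldn14 were among its scarcer ones, but the tricellular gene Lsr stood near the middle.

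Neighbours in this order were not all separate. Cldn11 exceeded Tjp1 in 6 of 8 libraries, all but WT1 and KO1, and Lsr exceeded Ocln in 5 of 8. The order within these pairs thus changed between libraries, and differences between genes were not tested. Tjp1 exceeded Cldn9 in 8 of 8 libraries, with no overlap of the ranges. Cldn9 exceeded Lsr, and Ildr1 exceeded Cldn14, in every library too, although the ranges over libraries overlapped. Ocln exceeded Ildr1, and Cldn14 exceeded Marveld2, in 7 of 8.

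Loss of miR-29a was accompanied by no detected change in any of the 8 genes. None passed the test (limma on log2(FPKM + 0.1), unadjusted two-sided p-value under 0.05, the threshold of the study), against 5.12% of the 14990 tested genes (4.61% higher and 0.507% lower in KO), and the lowest unadjusted p-value among them was 0.452, for Lsr. No gene of the whole table passed after Benjamini-Hochberg adjustment (0 of 14990, 0%), compared with 767 at an unadjusted p-value under 0.05. The fold changes of 3 members lay above 0 on the log2 scale and those of 5 below (Cldn9 moved from above to below with median-ratio scaling or quantile normalization), with a median of -0.07 against 0.10 over all tested genes, and WT and KO values overlapped in all 8, whereas they did not overlap in 3.50% of tested genes. Without WT1, 1 member (Lsr, at 0.0180) lay above 0 and 7 lay below, and the median was -0.22 for the members and -0.02 for all tested genes.

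**Figure D1:**
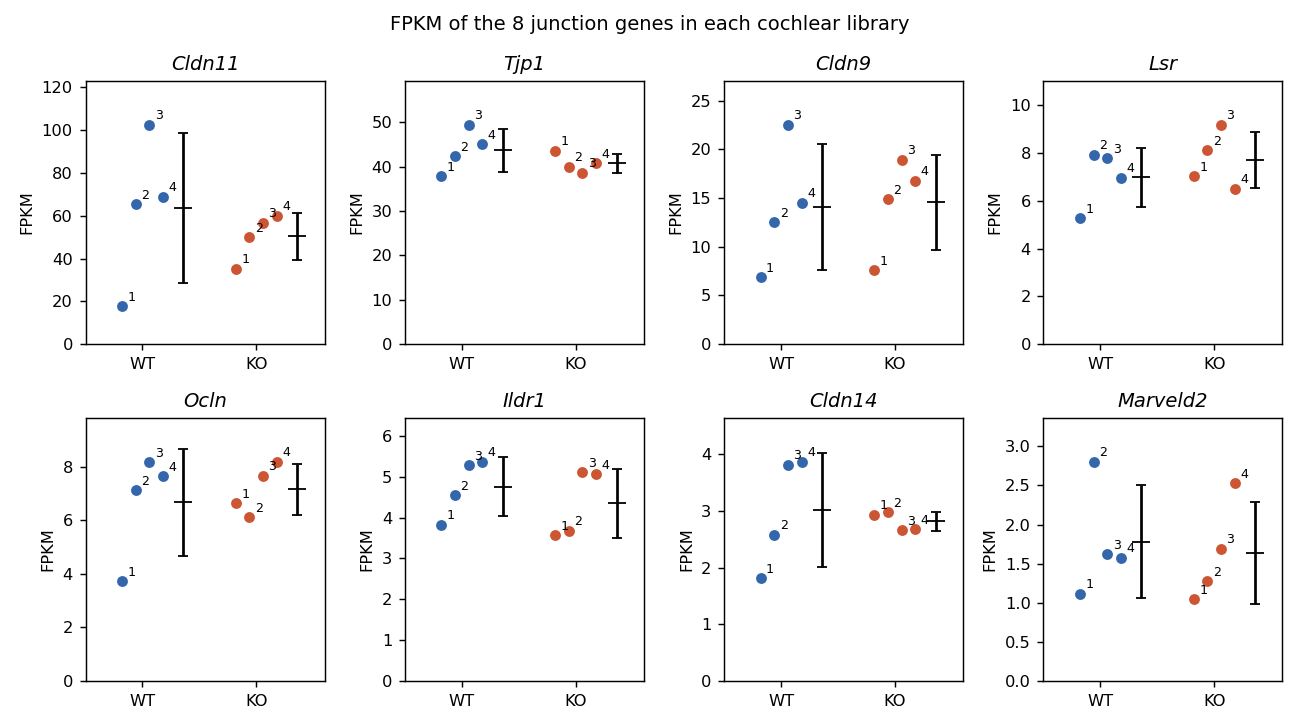
Level of each of the 8 genes in FPKM (vertical axis, linear, from 0) in the WT (blue) and KO (red) libraries, numbered by replicate, with bars for mean ± SD (n = 4). The WT and KO points overlap in every panel, and WT1 is the lowest WT point for 8 of 8 genes.

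Cldn9 encodes a claudin of the organ of Corti, where it helps keep potassium away from the basolateral side of hair cells. The gene (ENSMUSG00000066720) is annotated with 1 exon on chromosome 17, bases 23682584 to 23684026 of GRCm38, minus strand. Its level was 6.85, 12.5, 22.5 and 14.5 FPKM in WT1 to WT4 and 7.60, 14.9, 18.9 and 16.8 FPKM in KO1 to KO4. The libraries numbered 1 were the lowest in both genotypes and the KO values lay inside the range of the WT values. The means were 14.1 ± 6.48 and 14.5 ± 4.92 (SD, n = 4). KO against WT gave a log2 fold change of 0.09 (SE 0.39, 95% interval -0.81 to 0.99, limma unadjusted p = 0.827, adjusted p = 0.989). This direction depended on single libraries, with -0.21 without WT1, -0.06 without KO3, -0.0058 without KO4 and 0.37 without KO1.

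Cldn11 encodes the claudin of the basal cells of the stria vascularis, and it is also a component of central myelin. It lies on chromosome 3, bases 31149920 to 31164324, plus strand (ENSMUSG00000037625). Its level was 17.7, 65.2, 102 and 68.8 FPKM in WT1 to WT4 and 35.3, 49.8, 56.8 and 60.0 FPKM in KO1 to KO4. WT1 was lower than every KO library, and the other 3 WT libraries were higher than every KO library. Over all 8 libraries WT averaged 63.5 ± 34.8 and KO 50.5 ± 10.96 (SD, n = 4), a ratio of 0.795. In KO the log2 fold change was -0.11 (SE 0.49, 95% interval -1.23 to 1.01, limma unadjusted p = 0.827, adjusted p = 0.989). It was 0.20 without WT3, 0.01 without WT4 and 0.05 without KO1.

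Among the 8 genes, Cldn11 alone passed in any setting, and it did so when WT1 was left out. The WT mean was then 78.8 ± 20.5 FPKM (SD, n = 3), the groups did not overlap (lowest WT value 65.2, highest KO value 60.0), and Cldn11 fell by 0.64 on the log2 scale in KO (limma unadjusted p = 0.0221, adjusted p = 0.189). Without WT1, 19.5% of 15019 tested genes passed the unadjusted test in either direction and 7.40% were lower in KO, while the groups did not overlap in 18.3%, with KO wholly below WT in 7.17%. No gene passed the adjusted test in that fit. The other 7 members did not pass without WT1, and their groups overlapped.

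Markers of central myelin, and of strial cells that neighbour the basal cells, also varied over these libraries. The summed FPKM of 11 central myelin markers was 171, 281, 504 and 485 in WT1 to WT4 and 334, 267, 310 and 279 in KO1 to KO4, and 0 of the 10 tested passed. The sum of 7 markers of strial intermediate cells was 81.1, 152, 178 and 135 in WT and 87.9, 88.5, 96.2 and 111 in KO. As for Cldn11, WT1 was below every KO library in this sum and the other 3 WT libraries were above every KO library, and Dct and Kcnj10 made up most of it. Of its 6 tested markers, 4 had fold changes below 0 and 2 above (Mlana at 0.43 and Pmel at 0.02), and 1 passed, Tyr (tyrosinase, of melanin synthesis), which was lower in KO. The 7 strial marginal cell markers summed to 80.5, 148, 225 and 141 in WT and 88.9, 116, 128 and 151 in KO, all 7 had fold changes below 0, and Bsnd (barttin, a chloride channel subunit) passed as lower. The part of these cell types in the Cldn11 values was not tested, and in bulk tissue fewer cells of a type and less RNA per cell cannot be told apart.

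Cldn14 encodes a claudin of the apical junctions of hair cells and supporting cells. It lies on chromosome 16, bases 93919031 to 94008837, minus strand (ENSMUSG00000047109). Its level was 1.82, 2.58, 3.82 and 3.87 FPKM in WT1 to WT4 and 2.94, 2.98, 2.67 and 2.68 FPKM in KO1 to KO4. The KO libraries lay close together and inside the WT range. The means were 3.02 ± 1.002 and 2.82 ± 0.167 (SD, n = 4). The log2 fold change in KO was -0.04 (SE 0.26, 95% interval -0.63 to 0.56, limma unadjusted p = 0.889, adjusted p = 0.991). It was 0.09 without WT3, 0.10 without WT4 and -0.25 without WT1. The 10 hair cell markers summed to between 36.5 and 55.1 FPKM in WT and between 31.95 and 49.3 in KO, with 0 of 10 passing, and of 9 supporting cell markers 1 passed, Tectb (a tectorin of the tectorial membrane), lower in KO.

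The MARVEL-domain members lie side by side on the minus strand of chromosome 13. Ocln (ENSMUSG00000021638) spans bases 100496507 to 100552718, Marveld2 (ENSMUSG00000021636) spans bases 100595957 to 100616971, and 43238 bases lie between them. Ocln was measured at 3.73, 7.13, 8.18 and 7.64 FPKM in WT1 to WT4 and at 6.65, 6.12, 7.67 and 8.20 FPKM in KO1 to KO4. WT1 was far below the other 7 libraries, which overlapped. The means were 6.67 ± 2.01 and 7.16 ± 0.945 (SD, n = 4). KO against WT gave a log2 fold change of 0.15 (SE 0.26, 95% interval -0.43 to 0.74, limma unadjusted p = 0.570, adjusted p = 0.982). Without WT1 the log2 fold change of Ocln was -0.10. Ocln carried the longer of the seed matches shown above, and its interval lay on both sides of 0.

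Marveld2, whose product tricellulin occupies the central tube of the tricellular junction, was the scarcest member, at 1.12, 2.81, 1.62 and 1.58 FPKM in WT1 to WT4 and 1.05, 1.28, 1.69 and 2.53 FPKM in KO1 to KO4. WT2 and KO4 were high and the libraries numbered 1 were low in both genotypes. The means were 1.78 ± 0.721 and 1.64 ± 0.654 (SD, n = 4). In KO the log2 fold change was -0.11 (SE 0.36, 95% interval -0.92 to 0.70, limma unadjusted p = 0.757, adjusted p = 0.985). It was 0.12 without WT2 and 0.06 without KO1.

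The angulins mark the corner between cells and recruit tricellulin to it. Ildr1 (ENSMUSG00000022900, chromosome 16, bases 36693978 to 36726804, plus strand) was measured at 3.83, 4.55, 5.28 and 5.37 FPKM in WT1 to WT4 and at 3.57, 3.68, 5.12 and 5.06 FPKM in KO1 to KO4. KO1 and KO2 were the lowest of the 8 libraries and the other KO libraries lay within the WT range. The means were 4.76 ± 0.719 and 4.36 ± 0.847 (SD, n = 4). The log2 fold change in KO was -0.13 (SE 0.20, 95% interval -0.58 to 0.32, limma unadjusted p = 0.525, adjusted p = 0.979). Neither carrier of a seed match passed. The log2 fold changes of Ocln and Ildr1 lay on opposite sides of 0 with all libraries, but both lay below 0 without WT1 (-0.10 and -0.23) and with array weights (-0.07 and -0.20).

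Lsr encodes angulin-1, also known as a lipoprotein receptor of the liver. It lies on chromosome 7, bases 30957770 to 30973464, minus strand (ENSMUSG00000001247), and overlaps the antisense genes Gm17077 and Gm4673. The libraries were strand-specific, but whether the counting used strand is not given in the sources used here, so the Lsr values are uncertain to that extent. Annotated genes also overlap Marveld2 (Gm24261, opposite strand), Tjp1 (Gm44795, opposite strand, and Gm44792 and Gm44794, same strand) and Cldn14 (Gm49618, same strand). The values of these members are therefore not free of overlap either. The level of Lsr was 5.26, 7.92, 7.77 and 6.96 FPKM in WT1 to WT4 and 7.03, 8.12, 9.17 and 6.49 FPKM in KO1 to KO4. WT1 was the lowest and KO3 the highest library, and the remaining values were mixed between genotypes. The means were 6.98 ± 1.22 and 7.70 ± 1.19 (SD, n = 4). KO against WT gave a log2 fold change of 0.15 (SE 0.19, 95% interval -0.28 to 0.57, limma unadjusted p = 0.452, adjusted p = 0.973).

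Tjp1, the scaffold that binds claudins and occludin on the cytoplasmic side, varied least. It lies on chromosome 7, bases 65296165 to 65527781, minus strand (ENSMUSG00000030516). Its level was 37.8, 42.3, 49.4 and 45.0 FPKM in WT1 to WT4 and 43.6, 39.9, 38.6 and 40.7 FPKM in KO1 to KO4, with every KO value inside the WT range. The means were 43.6 ± 4.85 and 40.7 ± 2.12 (SD, n = 4). In KO the log2 fold change was -0.09 (SE 0.13, 95% interval -0.38 to 0.19, limma unadjusted p = 0.474, adjusted p = 0.975).

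The intervals set how large a change these libraries leave room for. For Tjp1, the 95% interval of KO relative to WT ran from 0.767-fold to 1.14-fold on the scale of FPKM + 0.1. For Cldn11 it ran from 0.427-fold to 2.01-fold. A p-value that missed the threshold therefore did not show equal expression, least of all for Cldn11, Cldn9 and Marveld2.

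**Figure D2:**
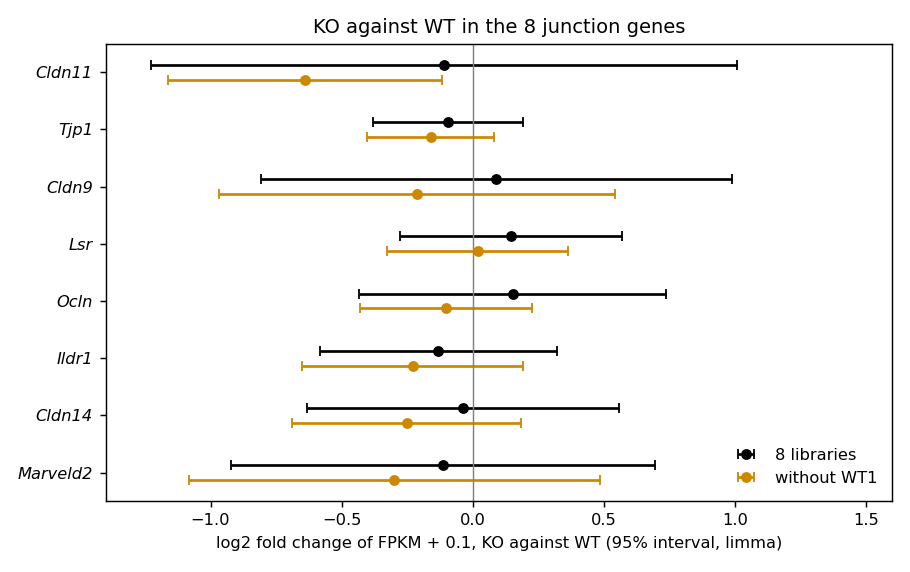
Log2 fold change of FPKM + 0.1, KO against WT (horizontal axis), with 95% intervals from limma for all 8 libraries (black) and without WT1 (ochre). Every black interval spans 0, and without WT1 only that of Cldn11 lies wholly below 0.

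The members differed in how much they varied between libraries. The highest library exceeded the lowest by 5.78-fold for Cldn11, 3.28-fold for Cldn9, 2.68-fold for Marveld2, 2.20-fold for Ocln and 2.13-fold for Cldn14, but by 1.74-fold for Lsr, 1.51-fold for Ildr1 and 1.31-fold for Tjp1. The coefficient of variation over 8 libraries was 43.7% for Cldn11 and 9.02% for Tjp1. WT1 was the lowest of all libraries for 6 members and KO1 for the remaining 2, Marveld2 and Ildr1, while WT3 was the highest for 3. Of all tested genes, 52.1% were lowest in WT1, 9.13% were lowest in KO1 and 19.0% were highest in WT3. The SD was smaller in KO than in WT for 7 of 8 members, a count that rests partly on WT1. Without WT1, the WT SD was 0.528 for Ocln and 0.514 for Lsr, below their KO SDs of 0.945 and 1.19. The other members kept their order. The share of all tested genes with a smaller SD in KO was not computed.

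Pairs of members that rose and fell together over the libraries were described by Pearson's r of log2(FPKM + 0.1), n = 8. All pairs share these libraries, so the low WT1 enters each value. Cldn11 and Ocln had r = 0.908 (Spearman's rho 0.714, Pearson's r 0.684 without WT1), and Cldn9 and Cldn11 had r = 0.881 (0.619, and 0.808 without WT1). Cldn14 went with Tjp1 at r = 0.822 (0.738, and 0.795 without WT1). Ocln and Ildr1 had r = 0.677 with all libraries and 0.910 without WT1. Cldn14 and Marveld2 were the least alike, at r = 0.0791.

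The libraries also differed in tissue outside the sensory epithelium. The 9 bone marrow markers summed to 1581, 195, 28.2 and 231 FPKM in WT1 to WT4 and to 735, 594, 1072 and 478 in KO1 to KO4. The sum was highest in WT1, where most members were lowest, and lowest in WT3, where 3 members were highest. Of all tested genes, 52.1% were lowest in WT1, while 19.0% were highest and 19.7% lowest in WT3, so these counts are not particular to the members. The 5 bone markers summed to 336, 160, 28.0 and 160 in WT and 325, 335, 264 and 178 in KO, with the same highest and lowest libraries. All 9 marrow markers and all 5 bone markers had fold changes above 0, with 0 and 1 passing (Sost, of osteocytes, higher in KO). General epithelial markers summed to between 61.0 and 101 FPKM in WT and between 77.4 and 86.3 in KO, with the lowest sum in WT1 and the highest in WT3. After WT1, the next highest marrow sum was that of KO3, where Lsr was at its highest of 8 libraries and Tjp1 at its lowest in KO. The part of marrow and bone in the levels of the junction genes was not tested.

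**Figure D3:**
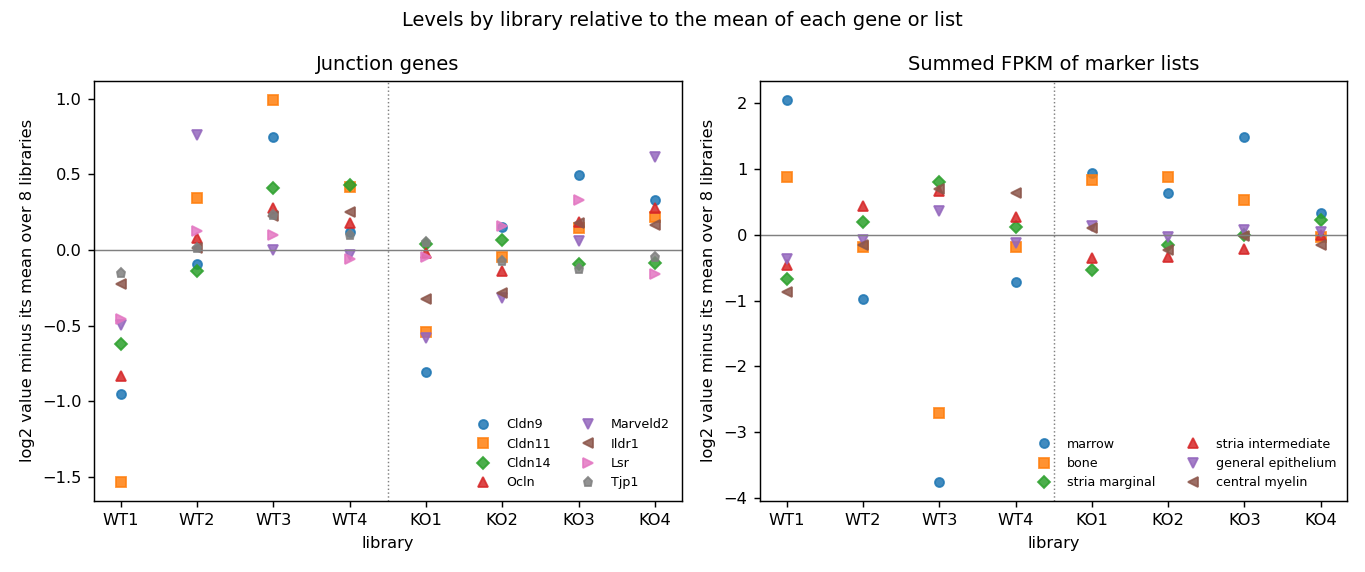
Log2 level in each library minus its mean over the 8 libraries (vertical axes), for the 8 junction genes (left) and for the summed FPKM of 6 marker lists (right). WT1 is below 0 for 8 of 8 junction genes and is the highest library for marrow and bone, whereas WT3 is the lowest for both.

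Genes most like each member were taken as the 3 of highest Pearson's r over the same 8 libraries, among 14126 genes with a mean of at least 1 FPKM. For Cldn11 these were Mapk8ip1 (r = 0.995), Gcdh (0.994) and Sccpdh (0.993). For Cldn9 they were Tmem59 (0.991), Atp6ap1 (0.991) and Cyp2u1 (0.982), and for Cldn14 Galnt14 (0.980), Qdpr (0.974) and Arhgef16 (0.969). None of these is a junction gene of the lists used here. Ocln was followed by Crybb1, Rab11fip5 and Kctd17 (each r = 0.991), and Marveld2 by Lrrc3b (0.973), Slc1a6 (0.969) and Sidt1 (0.966). Ildr1 was followed by Ppp1r3c (0.977), Gata2 (0.954) and Smim18 (0.954), Lsr by Zc3h10 (0.978), Fam104a (0.975) and Drap1 (0.969), and Tjp1 by Lrrc40 (0.956), Inppl1 (0.953) and Sfxn4 (0.947). With 8 libraries and so many genes, values of this size are a description only.

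Ratios of partner genes were taken within a library, so that scaling between libraries cancels, apart from the pseudocount of 0.1 in the log2 ratios tested. Tricellulin to occludin, Marveld2 over Ocln, was 0.299, 0.394, 0.198 and 0.206 in WT1 to WT4 and 0.157, 0.209, 0.221 and 0.309 in KO1 to KO4. The genotypes overlapped, and the mean log2 ratio in KO minus that in WT was -0.27 (exact permutation p = 0.486, adjusted over 3 ratios p = 0.714). This difference was -0.0835 without WT2 and -0.42 without KO4. The ratio of the angulins, Ildr1 over Lsr, was 0.729, 0.574, 0.679 and 0.771 in WT and 0.508, 0.453, 0.558 and 0.779 in KO. In 3 of 4 KO libraries it was lower than in every WT library, but KO4 had the highest value of all, and the difference of -0.28 did not pass (exact permutation p = 0.229, adjusted p = 0.686). Without KO4 it was -0.43 (exact permutation p = 0.0571). That is the smallest two-sided p-value that 4 libraries against 3 can give, so this comparison could not pass. Cldn14 over Cldn9, both claudins of the organ of Corti, was 0.265, 0.206, 0.170 and 0.267 in WT and 0.386, 0.201, 0.141 and 0.160 in KO, a log2 difference of -0.13 with overlapping groups (exact permutation p = 0.714, adjusted p = 0.714). These tests are two-sided, and the smallest p-value that 4 libraries against 4 can give is 0.0286.

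**Figure D4:**
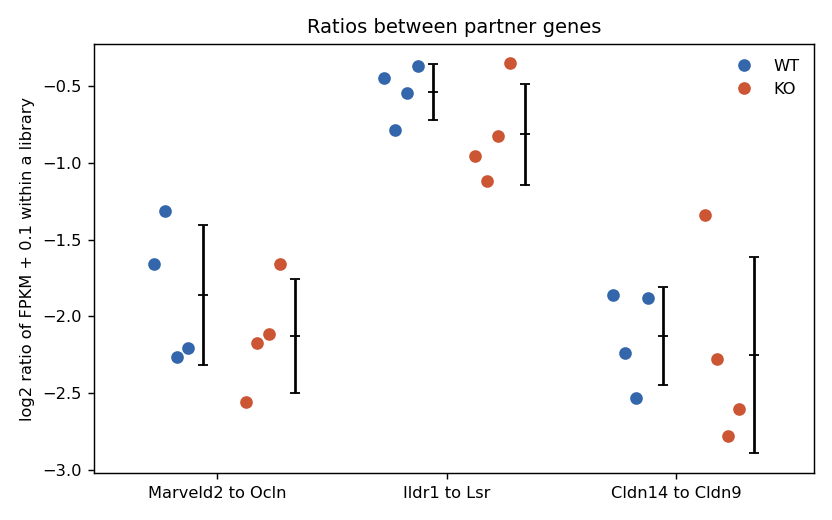
Log2 ratio of FPKM + 0.1 between partner genes within each library (vertical axis) for WT (blue) and KO (red), with bars for mean ± SD (n = 4). The groups overlap for all 3 ratios, and KO4 lies above the other KO libraries for Ildr1 to Lsr.

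The rest of the tight junction was described with 57 further genes, of which 54 were in the table and 47 were tested. Of these 47, 2 were higher in KO at an unadjusted p-value under 0.05, none was lower, and none passed after adjustment (lowest adjusted p = 0.947). That share of 4.26% was near the 5.12% of all tested genes, so it is no result about these lists. Without WT1, 5 passed, 3 higher and 2 lower, against 19.5% of all tested genes. Their median log2 fold change was 0.08, and -0.11 without WT1. The low value of WT1 extended to them, since 37 of the 47 had their lowest level in that library, as had 52.1% of all tested genes.

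None of the 16 tested claudins outside the 8 genes passed. By level they were led by Cldn5, the claudin of endothelial cells, and by Cldnd1. Cldn5 was measured at 2.19, 15.6, 17.1 and 20.0 FPKM in WT and 12.4, 16.8, 20.8 and 20.4 in KO, so that WT1 held far less than any other library. Endothelial markers together summed to between 48.4 and 65.1 FPKM in WT and between 59.5 and 70.9 in KO. That list includes Cldn5 itself, so its sum is no separate measure of endothelium beside Cldn5. Cldn16 and Cldn18 were listed at 0 in every library. Cldn13, singled out after its values were seen, had the largest fold change of the claudins at 2.59 on the log2 scale (limma unadjusted p = 0.0588, adjusted p = 0.947). That size depends on the pseudocount, since Cldn13 was listed at 0 in WT3. Its level was 6.66, 2.92, 0.00 and 3.33 FPKM in WT and 9.65, 12.4, 16.2 and 4.55 in KO. Within each genotype its highest and lowest libraries were those of the bone marrow sum. The part of marrow in its values was not tested.

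Both genes that passed, given here by the naming rule, lay outside the claudin family. Marveld1, a MARVEL-domain relative of Ocln and Marveld2, was measured at 12.01, 12.6, 13.7 and 13.5 FPKM in WT and 13.9, 16.4, 18.0 and 15.4 FPKM in KO. Every KO library exceeded every WT library, with a log2 fold change of 0.29 (limma unadjusted p = 0.0472, adjusted p = 0.947). Ybx3, a transcription factor that binds ZO-1, was measured at 28.6, 24.8, 24.8 and 21.8 FPKM in WT and 40.4, 36.4, 46.2 and 27.7 FPKM in KO. KO4 lay below WT1 and the other KO libraries lay above all WT libraries, with a log2 fold change of 0.57 (limma unadjusted p = 0.0108, adjusted p = 0.947). Under median-ratio scaling neither passed.

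The remaining lists held few calls. None of 6 junctional adhesion molecules passed, among them Jam3, at 28.6, 48.1, 78.2 and 49.3 FPKM in WT and 33.3, 42.7, 47.3 and 57.0 in KO, and Jam2, with a log2 fold change of 0.01. Of 22 scaffold and polarity genes only Ybx3 passed, and the most abundant other member, Mpdz, a multi-PDZ scaffold of claudins, had a log2 fold change of 0.09. The angulin Ildr2 had one of -0.08.

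Adherens junctions, the belt below the tight junction, were set beside it as a related structure. Of 11 tested genes 1 passed, Nectin3, an adhesion molecule, at 7.62, 9.67, 11.8 and 11.1 FPKM in WT and 7.29, 7.53, 6.96 and 7.62 in KO, which fell by 0.43 on the log2 scale (limma unadjusted p = 0.0284, adjusted p = 0.947). Its KO values were almost equal to each other and reached only the lowest WT value. Of all tested genes 5.12% passed, 0.507% as lower in KO, and a single call among 11 genes is no result about the list. The catenins Ctnnb1 and Ctnnd1, the most abundant of that list, had log2 fold changes of 0.05 and 0.15 and did not pass.

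**Figure D5:**
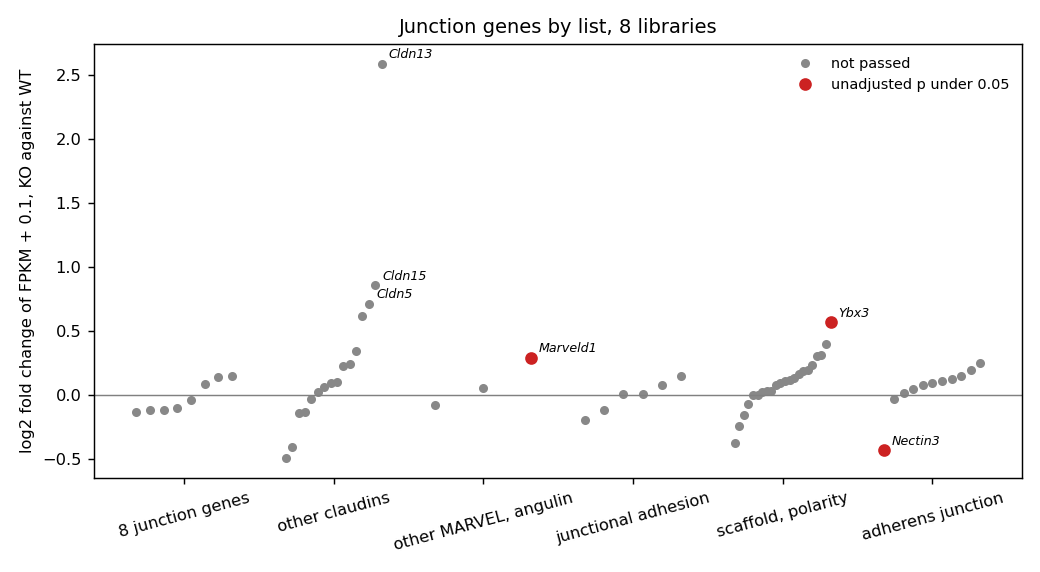
Log2 fold change of FPKM + 0.1, KO against WT (vertical axis), of every tested gene in the 8 junction genes and in 5 further junction lists, sorted within each list. Red points passed at an unadjusted p-value under 0.05, which were Marveld1, Ybx3 and Nectin3, and none of the 8 junction genes did.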

How the data were processed

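The authors extracted cochlear RNA with Trizol, made strand-specific libraries after removal of ribosomal RNA, and mapped the reads with Hisat2. The deposited values are FPKM, 1 column for each library. The tool and annotation behind the FPKM are not given in the sources used here. The submitters' processing notes name mm9, but 19771 of 21760 genes found in GENCODE mouse release 21 (GRCm38) had the same coordinates there, including all 8 members. Gene identifiers served to restore 27 symbols that read as dates. No column of values was left unused (0).

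Tests used log2(FPKM + 0.1) and the linear models of limma 3.58.1, R 4.3.3 (genotype as the only factor, mean-variance trend) on genes with a mean of at least 0.5 FPKM in the libraries fitted. Benjamini-Hochberg adjustment covered all tested genes. Ratios were compared by exact permutation of the libraries in SciPy 1.17.1, and with replicate blocks by exact sign flips of the differences by replicate number. FPKM hold no counts, so counting error is unknown, and relative depth was estimated from values under 0.1 FPKM. The scripts were tested on simulated data. The members and lists were chosen with earlier results of these data known. Besides the members, named genes were those passing in each junction list, its 2 most abundant genes, and the 3 genes most like each member. Markers that passed in a cell type list, 2 markers above 0 in the strial intermediate list, the markers that made up most of that sum, Cldn13 and the claudins listed at 0 were named after their values were seen. Alternatives were another pseudocount and filters, other scalings, other variance models, a replicate block, replicate numbers 1 to 3 only, and leaving out each library. Numbers 1 to 3 were run because the study states 3 libraries per genotype for its own comparison and the labels do not say which. The comparison here uses all 4.

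Transcripts of 7 members shared no 50-base word with another gene, and 0.541% of the words of Ildr1 were shared.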

Additional observations from a re-analysis of the deposited data

How the results depend on the processing

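Over the 8 members and 18 alternatives, 144 values were computed, of which 129 kept the direction of the log2 fold change and 1 passed the threshold (Cldn11 without WT1). Cldn9 had -0.0106 with median-ratio scaling and -0.0034 with quantile normalization, Ocln had -0.0708 with array weights, and with replicate numbers 1 to 3 only, Cldn14 had 0.12 and the log2 ratio of Cldn14 to Cldn9 differed by 0.0735. Leaving out each library in turn gave -0.21 to 0.37 for Cldn9, -0.64 to 0.20 for Cldn11, -0.25 to 0.10 for Cldn14, -0.10 to 0.27 for Ocln, -0.34 to 0.12 for Marveld2, -0.23 to -0.04 for Ildr1, 0.0180 (without WT1) to 0.22 for Lsr and -0.16 to -0.03 for Tjp1. For the log2 ratios it gave -0.43 to 0.0507 for Cldn14 to Cldn9, -0.42 to -0.0835 for Marveld2 to Ocln (-0.54 with replicate numbers 1 to 3 only) and -0.43 to -0.18 for Ildr1 to Lsr. Ildr1, Lsr and Tjp1 kept their signs in all alternatives run, although their sizes moved by more than 1.5 times. The cause of these shifts was not tested.

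The number of members passing ranged from 0 to 1 when a library was left out, that of all genes from 347 (without KO3) and 377 (without KO2) to 2922 (without WT1), and that of the other tight junction genes from 1 to 5. Array weights, which gave WT1 a weight of 0.108, passed 4133 genes, 446 of them after adjustment, and 8 other tight junction genes but no member. Of the other tight junction genes, 0 passed with median-ratio scaling, and 1 each with quantile normalization, without the mean-variance trend and with replicate numbers 1 to 3 only. Of all genes passing, 691 were higher and 76 lower in KO, against 401 and 362 with median-ratio scaling and 378 and 547 with quantile normalization. Median-ratio scaling moved the median log2 fold change of the members from -0.07 to -0.16 and that of all genes from 0.10 to 0.0046.

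WT and KO libraries share replicate numbers. Deviations from the group means correlated at 0.419, -0.240, -0.170 and 0.210 for numbers 1 to 4, so the numbers were not taken to pair the libraries. With replicate blocks in the fit, 838 genes, 0 members and 2 other tight junction genes passed. For the ratios, the signs of the KO minus WT differences by replicate number were flipped in all ways. This exact sign-flip test gave p = 0.5, 0.25 and 0.625 for Marveld2 to Ocln, Ildr1 to Lsr and Cldn14 to Cldn9. With 4 differences it cannot give a p-value under 0.05.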

Other observations

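Markers of tissues that adjoin the cochlea varied between libraries as well. The 5 skeletal muscle markers summed to between 0.202 and 7.46 FPKM in WT and to 263 FPKM in KO3, the highest KO library, against 0.836 in the lowest. The 10 markers of middle ear and airway epithelium, a tissue that has tight junctions of its own, summed to between 169 and 498 FPKM in WT and between 187 and 830 in KO, and none of the 7 tested passed. The 6 meningeal markers summed to between 3776 and 5524 FPKM in WT and between 4444 and 6155 in KO, and the 5 peripheral myelin markers to between 232 and 883 in WT and between 373 and 649 in KO, with none passing in either list. The part of these tissues in the levels of the junction genes was not tested.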
